A study of Homo sapiens with 6 samples.

Results

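CLDN1, CLDN4, TJP1 and F11R encode tight junction proteins, and their RNA was followed after knockdown of the mRNA export adaptor ALYREF in 786-O, an established cell line from a human renal carcinoma of the clear cell type that lacks functional VHL. The 4 genes are a named list, selected on their log2 fold changes in both knockdown comparisons, and all 4 were found among the 11679 genes of the authors' deposited tables. Their fold changes below are therefore descriptions, given with 95% intervals and without a test, and every value after ± is a standard error (SE). The libraries formed 3 groups of 2: cells given a non-targeting siRNA, cells given ALYREF siRNA5 and cells given ALYREF siRNA8. Every group was the same single line, grown in RPMI medium with 10% serum, transfected, and harvested 48 h later. The labels do not say whether duplicates came from separate cultures, so SEs and p-values cover the spread among these libraries alone, and that spread may be technical. The tables give 1 mean normalized count per gene over the libraries of the fit and 1 fold change per siRNA, and the values of each library are not given in the sources used here.

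Tight junctions seal the space between neighbouring epithelial cells near their apical side. Claudins are the four-pass membrane proteins that form the strands of the seal and set which ions pass, so that each nephron segment carries its own set. JAM-A, the product of F11R, is an immunoglobulin-type adhesion protein of the same strands. ZO-1, the product of TJP1, is a scaffold under the membrane that holds claudins, JAM-A and occludin to the actin cytoskeleton. In the kidney, claudin-1 is known from the parietal cells around the glomerulus, claudin-2 from the leaky proximal tubule and claudin-4 from the distal nephron and collecting duct.

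In the GENCODE 29 annotation (build GRCh38), the coding transcripts of CLDN1 span chr3:190305701-190322475 on the minus strand, those of CLDN4 chr7:73827744-73832693 on the plus strand, those of TJP1 chr15:29699367-29822503 on the minus strand and those of F11R chr1:160995211-161021348 on the minus strand. The counts were made on build hg19, and no coordinate was converted. The upstream sequences of the 2 claudins among these genes are shown first, because these 2 genes have the largest changes of the 4, in opposite directions. Both come from the RefSeq promoter table (build GRCh38.p14), cut to the 250 bases before the annotated start and written 5′ to 3′ on the gene's strand. Capitals mark GC boxes (GGGCGG or its complement CCGCCC) and AP-1 sites (TGACTCA or TGAGTCA). CLDN1 lies on the minus strand at chr3:190322447-190322696 and CLDN4 on the plus strand at chr7:73830746-73830995. The CLDN4 stretch precedes the RefSeq start, which lies inside the span of the longer GENCODE transcript.
CLDN1: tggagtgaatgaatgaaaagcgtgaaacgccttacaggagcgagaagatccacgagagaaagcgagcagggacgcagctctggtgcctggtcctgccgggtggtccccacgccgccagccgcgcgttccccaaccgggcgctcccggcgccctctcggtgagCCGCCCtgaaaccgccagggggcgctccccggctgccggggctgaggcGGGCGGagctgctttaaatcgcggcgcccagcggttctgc
CLDN4: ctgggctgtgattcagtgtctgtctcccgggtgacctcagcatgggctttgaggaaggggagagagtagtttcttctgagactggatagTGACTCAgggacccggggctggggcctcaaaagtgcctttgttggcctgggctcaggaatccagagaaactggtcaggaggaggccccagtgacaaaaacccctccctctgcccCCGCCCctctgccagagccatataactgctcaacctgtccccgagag

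The CLDN1 stretch held 2 GC boxes and no AP-1 site, with 68.8% G and C. The CLDN4 stretch held 1 GC box and 1 AP-1 site, with 58.8% G and C. A GC box was present in 42.6% and an AP-1 site in 4.20% of the 35116 stretches of the same length in the table. The E-box CAGGTG (or CACCTG), the motif bound by Snail and ZEB factors, was in neither claudin stretch, against 17.5% of all stretches. TJP1 has 4 annotated starts in the table, and 1 of their 4 stretches held an E-box. That stretch, chr15:29969050-29969299, lies outside the span given above for the coding transcripts of TJP1. These matches describe letters in a window and not binding. F11R was not matched in the promoter table.

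The knockdown itself was deep in both arms. ALYREF fell 17.6-fold with siRNA5 (log2 -4.14 ± 0.096) and 12.8-fold with siRNA8 (log2 -3.67 ± 0.085), with adjusted p listed as 0 for both in the authors' deposited tables. Over all genes, the authors' adjusted p was under 0.05 for 46.4% with siRNA5 (24.4% higher, 22.0% lower) and for 41.5% with siRNA8 (21.0% higher, 20.5% lower). The median log2 change of all genes was 0.010 and 0.006 in the authors' deposited tables. Of the 15 renal carcinoma and proximal tubule markers 9 were measured, among them PAX8, the transcription factor of the renal lineage, with a mean of 2354 normalized counts, EPAS1, the hypoxia factor HIF-2α, with 2207, and vimentin (VIM) with 53093 in the authors' deposited tables. Of the 11 distal tubule and collecting duct markers and the 6 endothelial markers 0 were analysed here, and of the 6 immune markers 1 was (CD68, summed level 213, 175 and 219 normalized counts in the control, siRNA5 and siRNA8 groups). Of 8 markers of keratin-rich epithelium 5 were analysed, with 0 higher and 2 lower for siRNA5 and 3 higher and 0 lower for siRNA8. Their summed level was 10806 in the control, 8171 with siRNA5 and 14701 with siRNA8, and their part in the results below was not tested.

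CLDN1 was higher and CLDN4 lower with each siRNA, both by about 2-fold or more. TJP1 was slightly higher and F11R slightly lower. All 4 genes carry an adjusted p under 0.05 in both of the authors' deposited tables, against 46.4% and 41.5% of all genes, and nothing is read from this count because the genes were chosen on these comparisons. Fewer cells with a transcript and less RNA per cell cannot be told apart in bulk RNA. Both comparisons share the same control libraries, so their values stand side by side and are not independent.

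**Figure D1:**
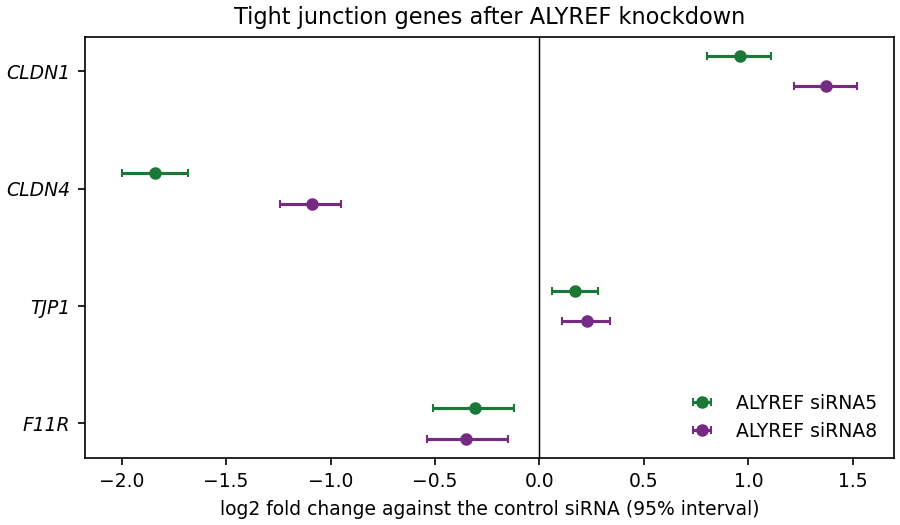
Log2 fold change (horizontal axis) of each gene with ALYREF siRNA5 (green) and siRNA8 (purple) against the control siRNA, with 95% intervals as bars. CLDN1 lies to the right of 0 and CLDN4 to the left with both siRNAs, while TJP1 and F11R lie within 0.5 of 0.

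To show levels, the 3 group means were rebuilt for each gene from its overall mean and its 2 fold changes, taking the 3 groups as equal in size. Under a variance model with the same library spread in every group, an SE for siRNA8 was predicted from that for siRNA5. It was a median 1.01 times the deposited one over the 5538 genes averaging 500 or more (5th to 95th percentile 1.00 to 1.01). The control level cancels out of that predicted SE, so the ratio is not a check on the rebuilt levels. The intervals on rebuilt levels come from the same variance model. They are built from the fold changes on which the genes were chosen, so any overlap or separation of them is a description only. The overall means of TJP1 (2708 normalized counts), CLDN1 (1230), CLDN4 (1164) and F11R (709) exceeded those of 91.1%, 76.8%, 75.6% and 62.5% of all genes in the authors' deposited tables. The spread between libraries beyond counting error, as the fit estimated it, was 3.40% for TJP1, 4.27% for CLDN1, 4.40% for CLDN4 and 5.75% for F11R, against a median of 4.04% over the genes averaging 500 or more.

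CLDN1, which encodes claudin-1, had a rebuilt level of 668 normalized counts in the control (95% interval 617 to 724), 1296 with siRNA5 (1208 to 1391) and 1726 with siRNA8 (1612 to 1847). The control was the lowest group and siRNA8 the highest. In the authors' deposited tables this was a rise of 1.94-fold with siRNA5 (log2 0.96 ± 0.079, 95% interval of the fold 1.74 to 2.16). With siRNA8 it was 2.58-fold (log2 1.37 ± 0.077, 95% interval 2.33 to 2.87) in the authors' deposited table. Only 4 of the 5538 genes averaging 500 or more had a larger log2 change with siRNA8, and 54 had one with siRNA5.

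CLDN4, which encodes claudin-4, went the other way. Its rebuilt level was 1997 normalized counts in the control (1865 to 2139), 559 with siRNA5 (513 to 608) and 936 with siRNA8 (867 to 1010). Here the control was the highest group and siRNA5 the lowest. CLDN4 was 3.58-fold lower with siRNA5 (log2 -1.84 ± 0.082, 95% interval 3.20 to 3.99) in the authors' deposited table. It was 2.13-fold lower with siRNA8 (log2 -1.09 ± 0.074, 95% interval 1.93 to 2.36) in the authors' deposited table. Among the genes averaging 500 or more, 5 had a lower log2 change with siRNA5 and 56 had one with siRNA8.

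TJP1, the gene of the scaffold ZO-1, differed little between groups. Its rebuilt level was 2465 normalized counts in the control (2334 to 2604), 2779 with siRNA5 (2633 to 2933) and 2881 with siRNA8 (2731 to 3041). It was 12.7% higher with siRNA5 (log2 0.17 ± 0.057) and 16.9% higher with siRNA8 (log2 0.23 ± 0.056) in the authors' deposited tables. Changes at least this large were common, being found in 55.7% and 39.9% of the genes averaging 500 or more.

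F11R, the gene of JAM-A, was lower to a similar small extent. Its rebuilt level was 820 normalized counts in the control (747 to 900), 661 with siRNA5 (600 to 728) and 645 with siRNA8 (585 to 710). It was 19.4% lower with siRNA5 (log2 -0.31 ± 0.099) and 21.4% lower with siRNA8 (log2 -0.35 ± 0.098) in the authors' deposited tables. Changes of at least this size were found in 31.6% and 22.5% of the genes averaging 500 or more. In the GENCODE 29 annotation, 38.3% of the exon bases of F11R overlap AL591806.3 on the same strand, so reads there can be assigned to either gene or set aside as ambiguous. No such overlap was found for CLDN1, CLDN4 or TJP1.

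**Figure D2:**
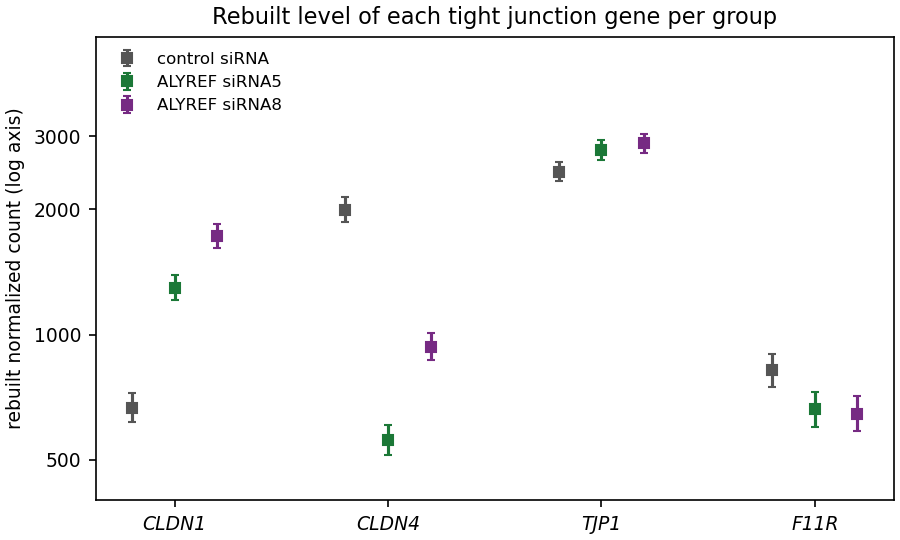
Rebuilt normalized count (vertical axis, log scale) of each gene in the control (grey), siRNA5 (green) and siRNA8 (purple) groups, with 95% intervals as bars. CLDN1 climbs from 668 to 1296 and 1726 while CLDN4 drops from 1997 to 559 and 936, and TJP1 and F11R shift by much less.

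The siRNAs differed in how far they moved the claudins. The log2 change of CLDN4 was lower with siRNA5 than with siRNA8 by a difference of -0.74 (95% interval -0.96 to -0.53), and that of CLDN1 by -0.41 (-0.63 to -0.20). The larger fall of CLDN4 thus came with siRNA5 and the larger rise of CLDN1 with siRNA8. For TJP1 the difference was -0.052 (-0.21 to 0.10) and for F11R 0.036 (-0.24 to 0.31), both spanning 0, which leaves room for differences up to those bounds. With the variance of the shared control libraries taken off, the intervals were -0.91 to -0.58 for CLDN4, -0.55 to -0.27 for CLDN1, -0.16 to 0.058 for TJP1 and -0.16 to 0.23 for F11R.

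Levels between genes were compared per kb of transcript, using the longest principal transcript of each gene in GENCODE 29: 3481 bases in 4 exons for CLDN1, 4163 bases in 2 exons for CLDN4, 7950 bases in 28 exons for TJP1 and 4835 bases in 10 exons for F11R. In the control, the rebuilt level per kb was highest for CLDN4 at 480 normalized counts (448 to 514), then TJP1 at 310 (294 to 328), CLDN1 at 192 (177 to 208) and F11R at 170 (155 to 186). The intervals of CLDN1 and F11R overlap, and those of the other neighbours do not. With siRNA5 the order began with CLDN1 at 372 (347 to 400) and TJP1 at 350 (331 to 369), whose intervals overlap, followed by F11R at 137 (124 to 150) and CLDN4 at 134 (123 to 146), which overlap as well. With siRNA8 it ran from CLDN1 at 496 (463 to 531) to TJP1 at 362 (343 to 382), CLDN4 at 225 (208 to 243) and F11R at 133 (121 to 147), with no overlap between neighbours.

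The place of CLDN4 in that order depends on its transcript. A principal transcript of CLDN4 in 1 exon has 1831 bases, which gives 1091 normalized counts per kb in the control, 305 with siRNA5 and 511 with siRNA8. CLDN4 would then exceed F11R in every group and lie close to CLDN1 with siRNA8. The change in the balance of both claudins does not depend on length: the ratio of CLDN4 to CLDN1 was 6.94-fold lower with siRNA5 (95% interval 5.95 to 8.09) and 5.51-fold lower with siRNA8 (4.77 to 6.37), computed from the authors' deposited tables. Per kb, with the longer CLDN4 transcript, the ratio was 2.50 (2.25 to 2.78) in the control, 0.360 (0.323 to 0.402) with siRNA5 and 0.453 (0.409 to 0.502) with siRNA8.

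Rises with both siRNAs were called for 1150 of the 11679 genes and falls with both for 1023, so neither direction was particular to claudins. Genes averaging 500 or more were ranked by likeness in size as well, by the distance between pairs of log2 changes over the 2 comparisons. Nearest to CLDN1 were SHISA2 (distance 0.20), NT5E, the ecto-nucleotidase CD73 (0.25), and ADAM19, a membrane metalloprotease (0.35). The log2 changes of SHISA2 were 0.77 ± 0.080 and 1.29 ± 0.077 in the authors' deposited tables. Nearest to CLDN4 were H2AFX, the histone H2AX (0.33), the growth factor FGF2 (0.40) and C11orf68 (0.40). No gene lay within 0.1 of CLDN1 or CLDN4, while 296 lay within 0.1 of TJP1, led by MRPL58, MAP3K4 and AP1M1, and 66 lay within 0.1 of F11R, led by SNHG18, KRT80 and PRR13. These distances rank genes and carry no test.

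Other junction genes were taken from 8 lists. For them, rises and falls are on the log2 scale and have an adjusted p under 0.05, and where a pair of values follows a gene, siRNA5 comes first and siRNA8 second. The other claudins showed no common direction. Besides CLDN1 and CLDN4, 3 of the 21 claudins of the list were analysed here, and 1 rose, 1 fell and 1 was not called with siRNA5, while 0 of 3 were called with siRNA8, against 46.4% and 41.5% of all genes. CLDN2, which encodes the cation-pore claudin of the proximal tubule, had a mean of 236 normalized counts. It rose by 0.46 ± 0.16 (adjusted p = 0.0141) with siRNA5, against a log2 change of -0.40 ± 0.18 (adjusted p = 0.0585) with siRNA8, per the authors' deposited tables. The difference between the siRNAs for CLDN2 was 0.85 ± 0.24 (adjusted p = 0.00217). CLDN15, another pore-forming claudin, fell by 0.69 ± 0.26 (adjusted p = 0.0209) with siRNA5 from a low rebuilt control level of 80.6 normalized counts and had a log2 change of -0.15 ± 0.24 with siRNA8, per the authors' deposited tables. Its difference between the siRNAs, -0.54 ± 0.36 (adjusted p = 0.265), did not pass. CLDN12 had log2 changes of -0.20 ± 0.094 (adjusted p = 0.0624) and 0.10 ± 0.092 (adjusted p = 0.379) in the authors' deposited tables.

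Of the other membrane proteins of the tight junction, 5 of 14 were analysed here without F11R. With siRNA5 1 rose and 1 fell, and with siRNA8 1 rose and 0 fell, or 40.0% and 20.0% called against 46.4% and 41.5% of all genes. ILDR2, a relative of the tricellular junction protein LSR, rose by 0.89 ± 0.11 (adjusted p = 7.59e-16) and 0.47 ± 0.11 (adjusted p = 8.99e-05) in the authors' deposited tables. LSR itself had log2 changes of 0.062 ± 0.13 and -0.006 ± 0.13 in the authors' deposited tables. CRB3, the apical polarity protein Crumbs3, fell by 1.22 ± 0.51 (adjusted p = 0.0376) with siRNA5, against a log2 change of -1.03 ± 0.49 (adjusted p = 0.077) with siRNA8, at an overall mean of only 24.1, in the authors' deposited tables. The difference between the siRNAs for CRB3, -0.19 ± 0.70 (adjusted p = 0.880), did not pass. OCLN, the occludin gene, was not analysed here.

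Scaffold and polarity genes were called about as often as genes in general with siRNA5. Of 24 such genes besides TJP1, 19 were analysed, with 5 higher, 4 lower and 10 not called for siRNA5 (median log2 0.059), and 6 higher, 1 lower and 12 not called for siRNA8 (median 0.18), or 47.4% and 36.8% called against 46.4% and 41.5% of all genes. The polarity gene PARD3 rose by 0.41 ± 0.052 and 0.21 ± 0.053, and AMOTL2, an angiomotin, by 0.53 ± 0.056 and 0.30 ± 0.056 in the authors' deposited tables. PATJ, a multi-PDZ scaffold that joins ZO-3 and claudin-1 to the Crumbs complex, fell by 0.93 ± 0.10 and 0.34 ± 0.096 in the authors' deposited tables.

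Several scaffold genes passed the threshold with 1 siRNA, and the difference between the siRNAs was tested for each. CGNL1, paracingulin, fell by 0.79 ± 0.15 with siRNA5, against a log2 change of 0.18 ± 0.14 (adjusted p = 0.288) with siRNA8, per the authors' deposited tables, and the difference between the siRNAs was -0.97 ± 0.21 (adjusted p = 2.07e-05). PARD3B, a homologue of PARD3, fell by 0.99 ± 0.38 (adjusted p = 0.0235) with siRNA5 in the authors' deposited table. Its rebuilt control level was 48.3 normalized counts. With siRNA8 PARD3B had -0.11 ± 0.34, and its difference of -0.88 ± 0.51 (adjusted p = 0.190) did not pass. AMOTL1 rose by 0.69 ± 0.084 and LIN7C, a small PDZ adaptor, by 0.44 ± 0.12 with siRNA8 in the authors' deposited table. With siRNA5 AMOTL1 had a log2 change of 0.077 ± 0.088 and LIN7C 0.034 ± 0.13 in the authors' deposited table. The difference was -0.61 ± 0.12 (adjusted p = 5.17e-06) for AMOTL1 and -0.40 ± 0.18 (adjusted p = 0.0719) for LIN7C.

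Of the 18 regulators of tight junctions, 16 were analysed, with 3 higher and 5 lower for siRNA5 and 4 higher and 2 lower for siRNA8, or 50.0% and 37.5% called against 46.4% and 41.5% of all genes. MYLK, the myosin light chain kinase whose activity opens the junction, fell by 0.54 ± 0.077 and 0.78 ± 0.078 in the authors' deposited tables. EPHA2, the ephrin receptor kinase that can phosphorylate claudin-4, rose by 0.46 ± 0.050 and 0.32 ± 0.050 in the authors' deposited tables. ROCK1 and ROCK2, kinases that drive actomyosin contraction, rose by 0.28 ± 0.071 and 0.33 ± 0.073 with siRNA5 in the authors' deposited table. With siRNA8 the log2 changes were 0.061 ± 0.071 for ROCK1 and -0.020 ± 0.074 for ROCK2 in the authors' deposited table. The difference between the siRNAs was 0.22 ± 0.10 (adjusted p = 0.0828) for ROCK1 and 0.35 ± 0.10 (adjusted p = 0.00395) for ROCK2. SPINT2, a protease inhibitor of the cell surface, fell by 0.28 ± 0.068 with siRNA8 and had a log2 change of -0.15 ± 0.068 (adjusted p = 0.0549) with siRNA5 in the authors' deposited tables. Its difference of 0.13 ± 0.096 (adjusted p = 0.326) did not pass.

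Transcription factors that repress epithelial genes were measured beside the claudins. SNAI1, SNAI2, ZEB1 and ZEB2 bind E-boxes and are known repressors of E-cadherin and of several claudin genes. ZEB1 rose by 0.33 ± 0.11 and 0.71 ± 0.10, and ZEB2 by 0.82 ± 0.092 and 0.34 ± 0.094, in the authors' deposited tables. SNAI2 fell by 0.40 ± 0.14 (adjusted p = 0.0096) with siRNA5 and rose by 0.79 ± 0.12 (adjusted p = 1.22e-09) with siRNA8, per the authors' deposited tables. SNAI1 had log2 changes of 0.068 ± 0.15 and 0.25 ± 0.14 (adjusted p = 0.159) in the authors' deposited tables. Their part in the changes of CLDN1 and CLDN4 was not tested. Of the 8 factors analysed among 16, 3 rose and 2 fell with each siRNA, or 62.5% called against 46.4% and 41.5% of all genes. Among the rest, TCF3, which encodes E2A factors, fell by 0.32 ± 0.055 and 0.14 ± 0.054 in the authors' deposited tables. GRHL1 fell by 0.70 ± 0.29 with siRNA8 and had a log2 change of 0.41 ± 0.26 with siRNA5 in the authors' deposited tables, a difference of 1.10 ± 0.39 (adjusted p = 0.0167).

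**Figure D3:**
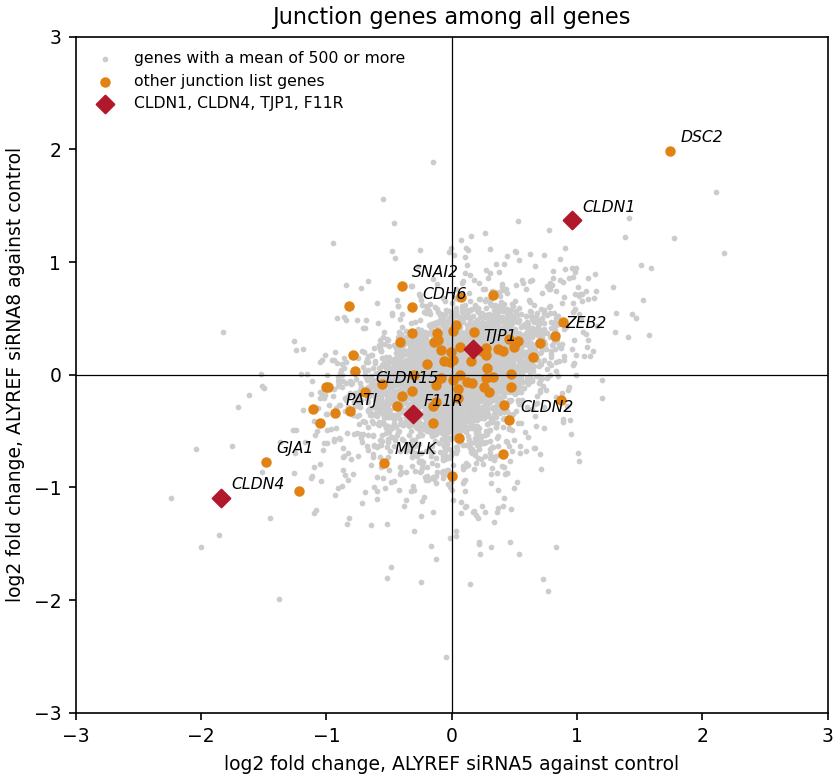
Log2 fold change with siRNA5 (horizontal axis) against that with siRNA8 (vertical axis) for 5538 genes of mean 500 or more (grey; ALYREF lies outside the axes), the other junction list genes (orange) and the 4 tight junction genes (red diamonds). CLDN1 sits at 0.96 and 1.37 and CLDN4 at -1.84 and -1.09, at the edge of the grey cloud, and TJP1 and F11R sit inside it.

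Genes of the other junctions of the cell border were counted in the same way. Of 11 adherens junction genes analysed, 7 rose and 2 fell with siRNA5 (median log2 0.24), and 6 rose and 1 fell with siRNA8 (median 0.21). This is 81.8% and 63.6% called, against 46.4% (24.4% higher) and 41.5% (21.0% higher) of all genes. The median mean of the list was 1527 normalized counts against 459 for all genes, and the part of this in the shares was not tested. Of the 11, 3 rose with both siRNAs, against 1150 of the 11679 genes measured. Another 3, CDH6, VCL and NECTIN2, were called in opposite directions, against 5.87% of all genes. CDH2, N-cadherin, rose by 0.26 ± 0.056 with siRNA5, against a log2 change of -0.11 ± 0.056 with siRNA8, and CTNNB1, β-catenin, rose by 0.24 ± 0.045 and 0.21 ± 0.045, in the authors' deposited tables. NECTIN1, an adhesion receptor, rose by 0.70 ± 0.10 and 0.28 ± 0.11, and AFDN, the afadin gene that links nectins to actin, by 0.18 ± 0.062 and 0.38 ± 0.061, in the authors' deposited tables. PVR, a nectin-like receptor, rose by 0.47 ± 0.062 with siRNA5, against a log2 change of 0.008 ± 0.063 with siRNA8, per the authors' deposited tables. CDH1, the E-cadherin gene, was not analysed here.

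Of 7 desmosome genes analysed, 2 rose and 2 fell with siRNA5 and 2 rose and 1 fell with siRNA8, or 57.1% and 42.9% called against 46.4% and 41.5% of all genes. PKP4, a plakophilin, fell by 0.44 ± 0.058 and 0.28 ± 0.057, in the authors' deposited tables. DSC2, a desmosomal cadherin, rose by 1.74 ± 0.51 and 1.99 ± 0.50 in the authors' deposited tables, at rebuilt levels of only 7.65, 25.5 and 30.4 normalized counts in the control, siRNA5 and siRNA8 groups. DSG2, its partner cadherin, rose by 0.12 ± 0.050 with siRNA5 and had -0.061 ± 0.050 with siRNA8 in the authors' deposited tables, a difference of 0.18 ± 0.071 (adjusted p = 0.0321). PKP3, another plakophilin, fell by 0.40 ± 0.16 with siRNA5 and had -0.19 ± 0.16 with siRNA8 in the authors' deposited tables, a difference of -0.21 ± 0.23 (adjusted p = 0.532). PERP, a desmosomal membrane protein, rose by 0.20 ± 0.059 with siRNA8 and had -0.006 ± 0.061 with siRNA5 in the authors' deposited tables, a difference of -0.21 ± 0.085 (adjusted p = 0.0475). Of 6 gap junction genes, 1 rose and 2 fell with siRNA5 and 0 rose and 2 fell with siRNA8, or 50.0% and 33.3% called. GJA1, connexin 43, fell by 1.48 ± 0.23 and 0.77 ± 0.21 in the authors' deposited tables, and its rebuilt control level was 145 normalized counts. GJB2, connexin 26, fell by 1.00 ± 0.13 with siRNA5, against a log2 change of -0.11 ± 0.12 with siRNA8, per the authors' deposited tables, with a difference of -0.89 ± 0.18 (adjusted p = 7.34e-06). PANX1, a pannexin channel, rose by 0.65 ± 0.080 with siRNA5 and had 0.16 ± 0.082 with siRNA8 in the authors' deposited tables, a difference of 0.49 ± 0.12 (adjusted p = 1.34e-04). GJC1, connexin 45, fell by 0.21 ± 0.079 with siRNA8 and had 0.048 ± 0.079 with siRNA5 in the authors' deposited tables, a difference of 0.26 ± 0.11 (adjusted p = 0.0608).

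Without CLDN1, CLDN4, TJP1 and F11R, 75 genes of the 8 lists were analysed. With siRNA5 23 rose and 19 fell, which is 56.0% called against 46.4% of all genes, with a median log2 change of 0.012 against 0.010. With siRNA8 22 rose and 9 fell, 41.3% called against 41.5%, with a median of 0.008 against 0.006. The siRNAs differed in 40.0% of these genes, against 32.0% of all genes, by the difference of the log2 changes. Calls in opposite directions with a called difference were made for 9.33% of the 75 genes and 5.87% of all genes. The median mean of the 75 genes was 585 normalized counts against 459 for all genes, and the part of this in the shares was not tested. Within the 4 tight junction lists alone, 48.8% of 43 genes were called with siRNA5 and 32.6% with siRNA8, against the same 46.4% and 41.5%. A change of at least 1.5-fold on top of the threshold left 14 of the 46 genes called with siRNA5 and 10 of the 35 called with siRNA8, CLDN1, CLDN4, TJP1 and F11R counted among the 79 tested. CLDN1 and CLDN4, chosen on these comparisons, are among those left with both siRNAs. The share of all genes passing the 1.5-fold minimum was not computed, so nothing about junction genes is read from these counts.

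**Figure D4:**
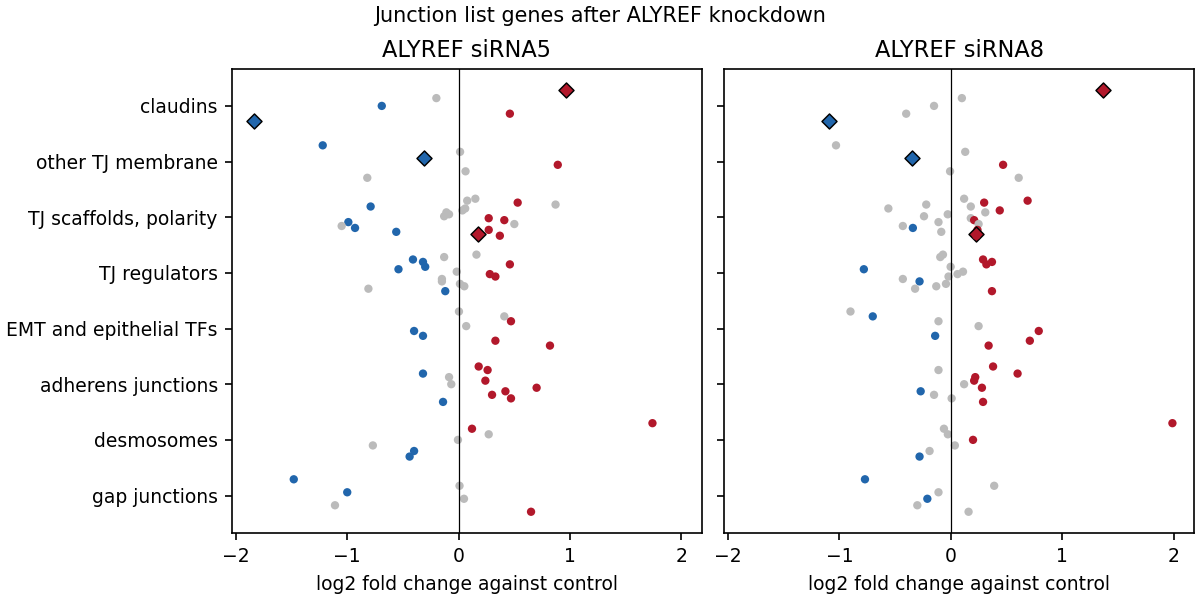
Log2 fold change (horizontal axis) of every junction gene analysed, by list (rows; TJ, tight junction; EMT, epithelial-mesenchymal transition; TFs, transcription and splicing factors), with siRNA5 (left) and siRNA8 (right). Red points rose and blue points fell at an adjusted p under 0.05, grey points were not called, and diamonds are CLDN1, CLDN4, TJP1 and F11R. With siRNA8, CLDN1, CLDN4, CRB3 and DSC2 are the points more than 1 from 0.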

How the data were processed

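Polyadenylated RNA of 786-O cells was sequenced as paired ends of 42 nt from directional libraries, per the labels' protocols. The submitters' processing notes name STAR, Picard, HTSeq and DESeq2 and the build hg19, without versions or settings. Per the file headers, the authors' deposited DESeq2 tables give, per gene, a mean signal (normalized count), a log2 fold change with its SE, a Wald score, a p-value and an adjusted p-value. Recomputing the Benjamini-Hochberg adjustment on every row gave the deposited adjusted p-values. The sources used here give no depth per library, and the gene means summed to 12632521. Reads without a feature and ambiguous reads (6.23% and 1.62% of the sum of means) were left out. Tables were matched to siRNAs by the number in their names and signs by ALYREF.

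Genes were called at an adjusted p under 0.05. To compare siRNA5 with siRNA8, their log2 changes were subtracted and divided by the SE of both combined (root sum of squares). The two-sided p was taken from the normal curve and adjusted by Benjamini-Hochberg across 11679 genes. The authors' fit was used as planned, and a fit on counts, planned only in case counts were given, was not run. Lists, members and the rule for named genes (all claudins analysed, the 3 largest called rises and falls per list and siRNA, the largest difference per list, 8 genes named outright, and the 3 nearest genes per member) were chosen with earlier results of these data known. Some genes that this rule names are not reported here. Transcript lengths came from GENCODE 29 (GRCh38), which may differ from the annotation used for counting. Python 3.11.15, pandas 2.3.3 and scipy 1.17.1 were used.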

Additional observations from a re-analysis of the deposited data

Results flagged for a closer look

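Of 75 junction genes besides CLDN1, CLDN4, TJP1 and F11R, 7 (9.33%, against 5.87% of all genes) passed the threshold in opposite directions with the 2 ALYREF siRNAs, and the difference of their log2 changes (siRNA5 minus siRNA8) passed it too. The part of the mean level of the 75 genes in that share was not tested. The largest difference was that of SNAI2, -1.19 ± 0.18 (adjusted p = 1.52e-09). CDH6, a cadherin of the renal tubule, fell by 0.32 ± 0.088 with siRNA5 and rose by 0.60 ± 0.084 with siRNA8, per the authors' deposited tables, a difference of -0.93 ± 0.12. ARHGEF18 and ARHGEF2, both guanine nucleotide exchange factors, differed by -0.70 ± 0.12 and -0.69 ± 0.13. ARHGEF2 fell by 0.32 ± 0.092 and rose by 0.37 ± 0.086, and ARHGEF18 fell by 0.41 ± 0.088 and rose by 0.29 ± 0.082, in the authors' deposited tables. YBX3, the ZO-1 partner ZONAB, differed by -0.49 ± 0.071, after a log2 change of -0.12 ± 0.051 with siRNA5 and 0.37 ± 0.049 with siRNA8, per the authors' deposited tables. VCL, vinculin, differed by -0.43 ± 0.061, with -0.14 ± 0.043 and 0.29 ± 0.043 in the authors' deposited tables. NECTIN2 went the other way, with a difference of 0.68 ± 0.13 after log2 changes of 0.42 ± 0.090 and -0.27 ± 0.095 in the authors' deposited tables.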

How the results depend on the processing

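No paired analysis was possible because the deposited tables hold no values per library. Leaving out replicates and a second normalization of counts were not run for the same reason. Requiring a change of at least 1.5-fold lowered the number of junction genes called from 46 to 14 with siRNA5 and from 35 to 10 with siRNA8. An adjusted p under 0.01, a mean of at least 100, recentring on the median of all genes, and leaving out CLDN1, CLDN4, TJP1 and F11R (the last added after seeing the data) gave 39 to 48 and 30 to 36 genes. The siRNAs differed in 32 junction genes, in 23 at an adjusted p under 0.01 and in 48 with the shared control variance taken off. The shares of all genes under the changed thresholds, filters, recentring and variance were not computed. These counts therefore show only how the calls depend on the settings. The log2 changes of CLDN1, CLDN4, TJP1, F11R and ALYREF kept their sign and moved by less than 1 SE under recentring. The control level per kb, by lengths chosen after seeing the data, moved to 1091 for CLDN4 on its shortest principal transcript, and to 254 for TJP1 on merged exons, against 480 and 310. Genes with few counts, such as CRB3 and DSC2, have SEs near 0.50, so changes under 2-fold were not detectable there.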

Other observations

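Keratins form the intermediate filaments anchored at desmosomes. Of the 5 markers of keratin-rich epithelium analysed, 80.0% differed between the siRNAs, against 32.0% of all genes, by the difference of the log2 changes. KRT80, a keratin outside that list, moved alike in both arms. Its log2 changes, from the authors' deposited tables, were -0.32 ± 0.069 (siRNA5) and -0.36 ± 0.069 (siRNA8). KRT8 fell by 0.55 ± 0.049 with siRNA5 and rose by 0.33 ± 0.047 with siRNA8, and KRT18, its partner, had a log2 change of -0.074 ± 0.062 and rose by 0.68 ± 0.061, in the authors' deposited tables. The difference between the siRNAs was -0.89 ± 0.068 (adjusted p = 2.36e-36) for KRT8 and -0.75 ± 0.087 (adjusted p = 2.88e-16) for KRT18. KRT19 fell by 1.77 ± 0.13 with siRNA5, against a log2 change of -0.018 ± 0.10 with siRNA8, per the authors' deposited tables, a difference of -1.75 ± 0.17 (adjusted p = 3.85e-23). The renal carcinoma and proximal tubule markers summed to 70578, 69883 and 66756 in the control, siRNA5 and siRNA8 groups, of which VIM alone made up 57709, 50765 and 50807. Of the 9 analysed, 6 rose and 2 fell with siRNA5, and 4 rose and 2 fell with siRNA8. This is 88.9% and 66.7% called, against 46.4% and 41.5% of all genes. The median mean of the 9 was 1749 normalized counts against 459 for all genes, and the part of this in the shares was not tested. CA12, a carbonic anhydrase, rose by 0.91 ± 0.055 and 0.43 ± 0.055, and NNMT, a methyltransferase, by 0.97 ± 0.066 and 0.56 ± 0.067, in the authors' deposited tables. VIM fell by 0.18 ± 0.044 and 0.18 ± 0.044 in the authors' deposited tables. ANPEP, an aminopeptidase of the brush border, fell by 0.39 ± 0.17 with siRNA5 and had 0.047 ± 0.16 with siRNA8 in the authors' deposited tables. Its difference of -0.43 ± 0.23 (adjusted p = 0.146) did not pass. GGT1 rose by 0.25 ± 0.067 with siRNA5 and fell by 0.38 ± 0.069 with siRNA8, while PAX8 had -0.050 ± 0.062 and rose by 0.39 ± 0.061, in the authors' deposited tables. The part of these changes in those of CLDN1 and CLDN4 was not tested.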
